A study of Mus musculus with 7 samples.

Results

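The 10 genes described here mark the neurons that make dopamine, serotonin or acetylcholine, and they were chosen by symbol from the 52636 genes counted in each library. They were *Th*, *Slc6a3* and *Pitx3* for dopaminergic neurons, *Ddc* and *Slc18a2* for monoaminergic neurons in general, *Tph2*, *Slc6a4* and *Fev* for serotonergic neurons, and *Chat* and *Slc18a3* for cholinergic neurons. All 10 had an entry in the counts of all 7 libraries, although *Pitx3* had 0 counts in A2. Libraries of polyA RNA came from dissected dorsal midbrain, 3 from control mice and 4 from mice with a conditional knockout of *Brn3b* (cKO). Controls carried 1 conditional and 1 wild-type allele of *Brn3b* (*Brn3b* flox/+ :: *En1-Cre*, labelled heterozygote), while in cKO mice a null allele replaced the wild-type one (*Brn3b* flox/- :: *En1-Cre*, labelled homozygote). Mice of both genotypes carried 1 copy of *En1-Cre*, which drives recombination in the midbrain and hindbrain. Ages were P4 for the controls A2 and A6 and the cKO mice B1 and B8, P3 for the control A4, and P2 for the cKO mice B7 and B9, so that an age of P2 cannot be told apart from the cKO genotype.

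Dopamine is made from tyrosine by tyrosine hydroxylase (*Th*) and aromatic amino acid decarboxylase (*Ddc*), and serotonin is made from tryptophan by tryptophan hydroxylase (*Tph2*) and the same decarboxylase. Both are loaded into vesicles by *Slc18a2* and taken back up by their own transporters, *Slc6a3* for dopamine and *Slc6a4* for serotonin. Acetylcholine is made by choline acetyltransferase (*Chat*) and loaded into vesicles by *Slc18a3*. The cell bodies of midbrain dopaminergic neurons lie mainly in the ventral midbrain, those of serotonergic neurons in the raphe nuclei along the midline, and those of cholinergic neurons in cranial motor and tegmental nuclei. The dorsal midbrain holds the superior colliculus and the periaqueductal gray, and the dorsal raphe lies in the ventral part of the latter. *Pitx3* and *Fev* encode transcription factors of dopaminergic and serotonergic neurons, respectively.

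The promoters of the 3 serotonergic genes, whose levels varied most between mice, and of *Th* are shown for comparison of their sequence. Each window runs from 250 bases before to 50 bases after the RefSeq start site (GRCm38.p6), 5′ to 3′ on the strand of the gene. Capitals mark matches to any of 6 short motifs, each searched on both strands. The ETS core, the site family of Fev, was searched as CCGGAA. The site of GATA factors, which act upstream of *Fev* in serotonergic neurons, was searched as AGATAA. The site of Nr4a2, a factor of dopaminergic neurons, was searched as AAAGGTCA, and the cyclic AMP response element as TGACGTCA. The TATA box was searched as TATAAA, and the bicoid-type site family of Pitx3 as TAATCC.
Tph2 (chr10:115184973-115185272, minus strand): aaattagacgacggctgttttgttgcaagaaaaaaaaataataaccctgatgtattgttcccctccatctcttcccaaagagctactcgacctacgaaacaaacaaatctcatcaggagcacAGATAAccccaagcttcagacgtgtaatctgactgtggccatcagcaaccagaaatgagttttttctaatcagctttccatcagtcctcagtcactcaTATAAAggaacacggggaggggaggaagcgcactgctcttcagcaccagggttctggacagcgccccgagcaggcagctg
Slc6a4 (chr11:76998347-76998646, plus strand): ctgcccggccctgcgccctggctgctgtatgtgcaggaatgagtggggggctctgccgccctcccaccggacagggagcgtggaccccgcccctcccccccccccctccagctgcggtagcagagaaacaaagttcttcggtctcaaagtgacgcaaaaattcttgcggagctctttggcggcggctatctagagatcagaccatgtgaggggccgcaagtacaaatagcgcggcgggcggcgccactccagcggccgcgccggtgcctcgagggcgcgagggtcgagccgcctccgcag
Fev (chr1:74885359-74885658, minus strand): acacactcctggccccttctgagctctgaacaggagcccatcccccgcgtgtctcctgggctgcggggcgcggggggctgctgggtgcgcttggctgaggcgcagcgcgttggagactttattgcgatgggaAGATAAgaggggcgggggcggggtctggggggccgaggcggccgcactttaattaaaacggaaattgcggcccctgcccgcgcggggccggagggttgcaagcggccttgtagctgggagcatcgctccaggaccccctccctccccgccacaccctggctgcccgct
Th (chr7:142899946-142900245, minus strand): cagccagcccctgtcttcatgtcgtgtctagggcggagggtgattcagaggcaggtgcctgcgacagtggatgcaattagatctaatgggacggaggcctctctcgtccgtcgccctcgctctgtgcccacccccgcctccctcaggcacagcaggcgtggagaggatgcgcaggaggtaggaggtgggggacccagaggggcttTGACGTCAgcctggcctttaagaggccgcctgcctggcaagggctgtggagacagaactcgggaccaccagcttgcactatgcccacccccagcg
The *Tph2* window held the GATA motif at -128 and the TATA box at -30, counted from the start site, and the *Fev* window held the GATA motif at -118. No motif of the set was found in the *Slc6a4* window, and *Th* held the cyclic AMP response element at -45. The window of *Slc18a2*, not printed, also held the cyclic AMP response element, at -4. Over all 32851 promoter windows of 300 bases, the GATA motif was present in 11.2%, the TATA box in 13.6% and the cyclic AMP response element in 1.79%, against 3, 2 and 2 of the 11 windows of these genes (*Ddc* has a pair of start sites). The ETS core was in 1 of the 11 (*Chat*) against 14.9% of all windows, the Nr4a2 site in 1 (*Ddc*, where it overlaps the TATA box) against 1.51%, and the bicoid-type site in 0 against 7.06%. These matches describe the letters of the windows only.

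Between 23588248 and 87572085 read pairs per library fell on genes. The P2 cKO libraries were the deepest (67792192 in B7 and 87572085 in B9), against at most 40411968 in the others. Depth thus cannot be told apart from an age of P2. *Pou4f2*, the gene that encodes Brn3b, was counted at 46.6 ± 0.824 CPM (SD, n = 3) in controls and at 10.4 ± 0.920 CPM (SD, n = 4) in cKO mice, with no overlap, and was the only gene of 21817 tested that edgeR's quasi-likelihood test called (log2 fold change -2.16, SE 0.13, adjusted p = 0.000566). Levels are given as CPM, the counts per 1000000 counts of the TMM-scaled library, and a call is a Benjamini-Hochberg adjusted p under 0.05. The library of B8 stood apart: limma-voom gave it a quality weight of 0.167, against 0.857 to 2.89 for the others, and without it edgeR called 9867 of 21122 genes. A4 held 3.55 CPM of *Tbr1*, a gene of cortical neurons, against 0.256 to 0.855 CPM in the others. The dissections were rich in dorsal midbrain markers, with a summed level of 993 to 1608 CPM over *Pax7*, *Tfap2b*, *Barhl1*, *Meis2*, *Otx2* and *Pou4f1*.

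No member was called between cKO and control mice (0 of 9 tested, against 0.00458% of all genes), and none had an unadjusted edgeR p under 0.05, against 30.4% of all genes tested. *Chat*, with 2 to 16 counts per library, did not pass the filter on low counts. The values of control and cKO mice overlapped for all 10 genes, whereas they did not overlap for 14.0% of the genes tested (6.03% with cKO mice higher and 8.01% with cKO mice lower). The fitted log2 fold changes of the serotonergic genes, 1.66 to 1.93, did not pass the test, and they were 0.54 for *Tph2* and 0.37 for *Slc6a4* without B8. In bulk tissue, a change in the number of cells of a type cannot be told apart from a change in the RNA per cell.

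**Figure D1:**
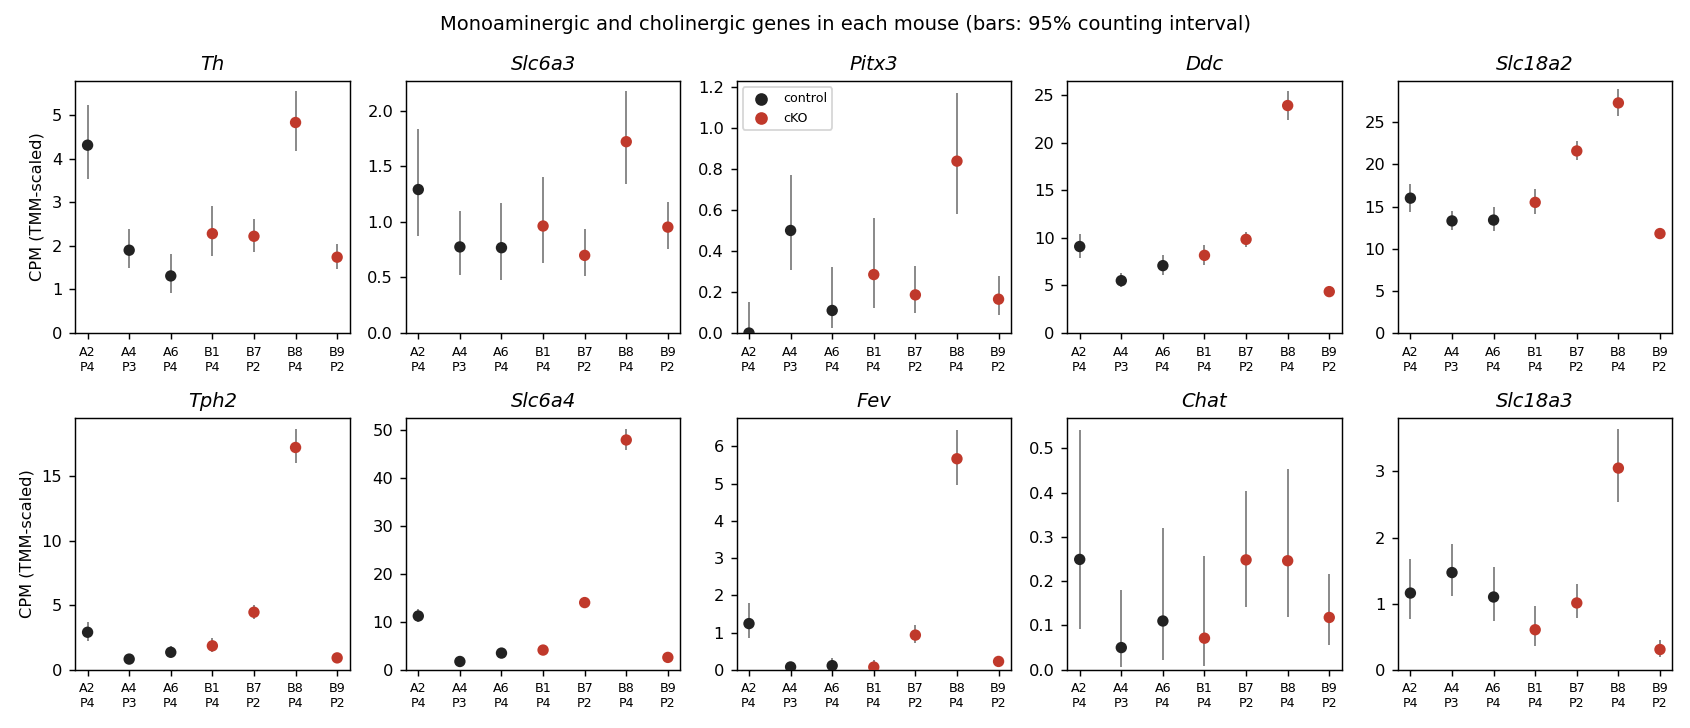
Level of each gene in each mouse, as CPM on a linear axis from 0, with the age under each mouse. Points are mice (black, control; red, cKO) and bars are exact 95% Poisson intervals, which cover counting error only. B8 is highest in 9 of the 10 panels, and the points of the genotypes overlap in all 10.

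The serotonergic genes differed most between mice. They lie at chr10:115078641-115185022 on the minus strand (*Tph2*), chr11:76998603-77032340 on the plus strand (*Slc6a4*) and chr1:74881509-74885419 on the minus strand (*Fev*) of GRCm38. *Tph2*, which encodes the rate-limiting enzyme of serotonin synthesis in neurons, was counted at 2.90, 0.824 and 1.35 CPM in A2, A4 and A6 and at 1.85, 4.45, 17.2 and 0.917 CPM in B1, B7, B8 and B9. B8 was the highest and A4 the lowest, 20.9-fold apart, and B9 lay within the range of the controls. The log2 fold change was 1.87 (SE 0.93, 95% interval -0.21 to 3.95, edgeR adjusted p = 0.195), and it fell to 0.54 (SE 0.55, edgeR adjusted p = 0.449) without B8. *Slc6a4*, the serotonin transporter, was counted at 11.2, 1.72 and 3.47 CPM in the controls and at 4.10, 14.0, 47.9 and 2.57 CPM in the cKO mice. Its order of mice was the same as that of *Tph2*, with B8, B7 and A2 the 3 highest and A4 and B9 the 2 lowest. Its log2 fold change was 1.66 (SE 0.99, 95% interval -0.56 to 3.89, edgeR adjusted p = 0.263) with all mice and 0.37 (SE 0.64, edgeR adjusted p = 0.670) without B8. *Fev* was counted at 1.24, 0.0749 and 0.110 CPM in the controls and at 0.0712, 0.931, 5.67 and 0.223 CPM in the cKO mice. A4, A6 and B1 had only 2 to 3 counts, while B8 had 230 counts and stood above all the others. The log2 fold change was 1.93 (SE 1.38, 95% interval -1.17 to 5.03, edgeR adjusted p = 0.346), and without B8 *Fev* did not pass the filter, with a mean of 0.409 ± 0.459 CPM (SD, n = 3) in the other cKO mice against 0.476 ± 0.666 CPM (SD, n = 3) in controls.

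The ratio of *Slc6a4* to *Tph2* counts stayed between 2.09 and 3.87 in all 7 libraries, a 1.85-fold range, although both genes ranged more than that between mice. Log2 CPM of the pair correlated with a Pearson r of 0.99 over 7 libraries (exact permutation p = 0.000198, adjusted p = 0.00238 over 12 pairs of members) and a Spearman rho of 1.00 (exact permutation p = 0.000397). The r was 0.97 without B7 and B8, the mice farthest from the median. The ratio of *Fev* to *Tph2* ranged from 0.0385 to 0.429, an 11.1-fold range that rests on 2 to 3 *Fev* counts in 3 libraries, with r = 0.91 (exact permutation p = 0.00853, adjusted p = 0.0205) and rho = 0.71 (exact permutation p = 0.0881), and r = 0.66 without B7 and B8. With *Slc6a4* in place of *Tph2*, r was 0.95 (exact permutation p = 0.00635, adjusted p = 0.0190) with rho = 0.71 (exact permutation p = 0.0881), and r was 0.82 without B7 and B8. With 3 controls and 4 cKO mice, neither genotype held enough mice for a correlation of its own.

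*Slc18a2* and *Ddc* are used by dopaminergic and serotonergic neurons alike. *Slc18a2*, which loads monoamines into vesicles, was counted at 16.0, 13.3 and 13.4 CPM in the controls and at 15.5, 21.6, 27.3 and 11.8 CPM in the cKO mice. B8 and B7 were above all controls and B9 was below all of them, and the log2 fold change was 0.42 (SE 0.27, edgeR adjusted p = 0.294), or 0.19 without B8. Exons of *Slc18a2* overlap those of the antisense gene *Gm29261* over 111 bases, and the strand setting of the counting was not given in the sources used here. *Ddc* was counted at 9.09, 5.50 and 7.08 CPM in the controls and at 8.16, 9.84, 23.9 and 4.35 CPM in the cKO mice. B8 was again the highest, B9 the lowest, and the other 5 mice lay between 5.50 and 9.84 CPM. The log2 fold change of 0.68 (SE 0.49, edgeR adjusted p = 0.351) became 0.04 without B8. Both genes followed *Tph2* across the 7 libraries (r = 0.97 each, exact permutation p = 0.000397 for *Ddc* and 0.000794 for *Slc18a2*, adjusted p = 0.00238 and 0.00317; rho = 0.96 each, exact permutation p = 0.00278), and r was 0.91 and 0.88 without B7 and B8. Their ratios to *Tph2* counts ranged from 1.39 to 6.67 for *Ddc* (4.81-fold) and from 1.58 to 16.2 for *Slc18a2* (10.2-fold). With *Slc6a3* as the marker of dopaminergic neurons in place of *Tph2*, r was 0.69 for *Ddc* (exact permutation p = 0.0885, adjusted p = 0.136) and 0.52 for *Slc18a2* (exact permutation p = 0.225, adjusted p = 0.299). *Slc6a3* and *Tph2* had an r of 0.68 (exact permutation p = 0.0905, adjusted p = 0.136), or 0.78 without B7 and B8.

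Dopaminergic genes were low in every library. *Th*, the rate-limiting enzyme of dopamine synthesis, was counted at 4.31, 1.90 and 1.31 CPM in the controls and at 2.28, 2.22, 4.83 and 1.74 CPM in the cKO mice. The control A2 and the cKO mouse B8 stood high, and the other 5 mice lay between 1.31 and 2.28 CPM. The log2 fold change was 0.15 (SE 0.47, 95% interval -0.91 to 1.20, edgeR adjusted p = 0.847), and it was -0.27 (SE 0.38, edgeR adjusted p = 0.598) without B8. *Slc6a3*, the dopamine transporter, was counted at 1.29, 0.774 and 0.767 CPM in the controls and at 0.962, 0.698, 1.72 and 0.952 CPM in the cKO mice. A2 and B8 were again the highest in their groups, with 31 and 70 counts, and the log2 fold change was 0.20 (SE 0.40, 95% interval -0.69 to 1.10, edgeR adjusted p = 0.741), or -0.11 without B8. The *Th* to *Slc6a3* ratio stayed between 1.71 and 3.35 (r = 0.86, exact permutation p = 0.0181, adjusted p = 0.0361; rho = 0.75, exact permutation p = 0.0663; r = 0.91 without B7 and B8). *Pitx3* was counted at 0, 0.500 and 0.110 CPM in the controls and at 0.285, 0.186, 0.838 and 0.165 CPM in the cKO mice. A2, which was high in *Th*, had 0 *Pitx3* counts (upper bound of the exact 95% interval 0.153 CPM), and A4 and B8 were the highest. *Pitx3* had an r of 0.01 with *Th* (exact permutation p = 0.984, adjusted p = 0.984) and of 0.11 with *Slc6a3* (exact permutation p = 0.793, adjusted p = 0.865). These values moved to 0.55 without A2 and B8 and to -0.76 without B7 and B8, so they rest on few mice. Its fold change had a wide interval (log2 0.69, 95% interval -1.43 to 2.80, edgeR adjusted p = 0.630). Without B8 it did not pass the filter, with a mean of 0.212 ± 0.0642 CPM (SD, n = 3) in the other cKO mice against 0.203 ± 0.263 CPM (SD, n = 3) in controls.

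**Figure D2:**
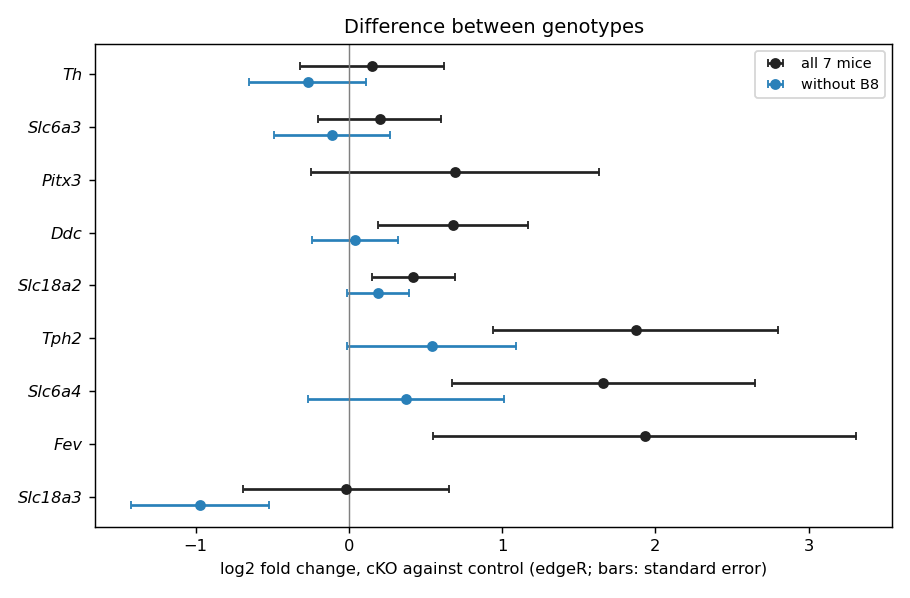
Log2 fold change of cKO against control for the 9 genes tested, from edgeR, with the standard error as bars (black, all 7 mice; blue, without B8). *Pitx3* and *Fev* have no blue point because they did not pass the filter without B8. Without B8, *Tph2* moves from 1.87 to 0.54, *Slc6a4* from 1.66 to 0.37 and *Slc18a3* from -0.02 to -0.97.

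Both cholinergic genes were low. *Slc18a3* is a single exon on the minus strand (chr14:32462438-32464850, GRCm38) that lies inside the *Chat* gene (chr14:32408203-32465989, minus strand), and no exonic base is shared between the genes. *Slc18a3* was counted at 1.16, 1.47 and 1.10 CPM in the controls and at 0.605, 1.01, 3.05 and 0.306 CPM in the cKO mice. Of the cKO mice, B8 was above all controls while B1, B7 and B9 were below all of them. The log2 fold change was -0.02 (SE 0.67, 95% interval -1.51 to 1.47, edgeR adjusted p = 0.988) with all mice and -0.97 (SE 0.45, edgeR adjusted p = 0.0969) without B8, when the cKO mean was 0.64 ± 0.353 CPM (SD, n = 3) against 1.24 ± 0.202 CPM (SD, n = 3). *Chat* was counted at 0.249, 0.050 and 0.110 CPM in the controls and at 0.0712, 0.248, 0.246 and 0.118 CPM in the cKO mice, and the intervals of all mice overlapped. When the filter was lowered to 1 count, its log2 fold change was 0.41 (SE 0.82, edgeR adjusted p = 0.791). No correlation of *Slc18a3* with *Chat* was found (r = 0.34, exact permutation p = 0.460, adjusted p = 0.552). With 2 to 16 *Chat* counts per library, the test could miss one.

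Levels between genes were compared per length, as CPM per kilobase of exon, scaled to the same total in each library. In this order *Slc18a2* was highest at 10.2 ± 3.40 (SD, n = 7), followed by *Slc6a4* at 8.20 ± 10.6, *Ddc* at 6.70 ± 4.22, *Tph2* at 4.47 ± 5.96 and *Th* at 3.46 ± 1.59. *Fev* had 2.21 ± 3.65, *Slc18a3* 1.56 ± 1.04, *Slc6a3* 0.917 ± 0.290, *Pitx3* 0.595 ± 0.533 and *Chat* 0.105 ± 0.0609. Of the 36270 genes with a count, 70.8% lay below *Slc18a2*, 59.0% below *Th* and 18.5% below *Chat* on this scale. Without B8 the mean was 4.42 ± 3.92 (SD, n = 6) for *Slc6a4*, 2.30 ± 1.76 for *Tph2* and 0.879 ± 0.996 for *Fev*, and it was 9.34 ± 2.80 for *Slc18a2*, 5.21 ± 1.66 for *Ddc* and 3.04 ± 1.25 for *Th*. With all mice, *Slc6a4* was above *Ddc* in only 3 of 7 libraries, *Tph2* was above *Th* in 2 of 7 and *Fev* above *Slc18a3* in 4 of 7, so these neighbours did not differ beyond their spread. Neighbours in 6 of 7 libraries in the order given were *Slc18a2* and *Slc6a4*, *Ddc* and *Tph2*, *Th* and *Fev*, and *Pitx3* and *Chat*.

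**Figure D3:**
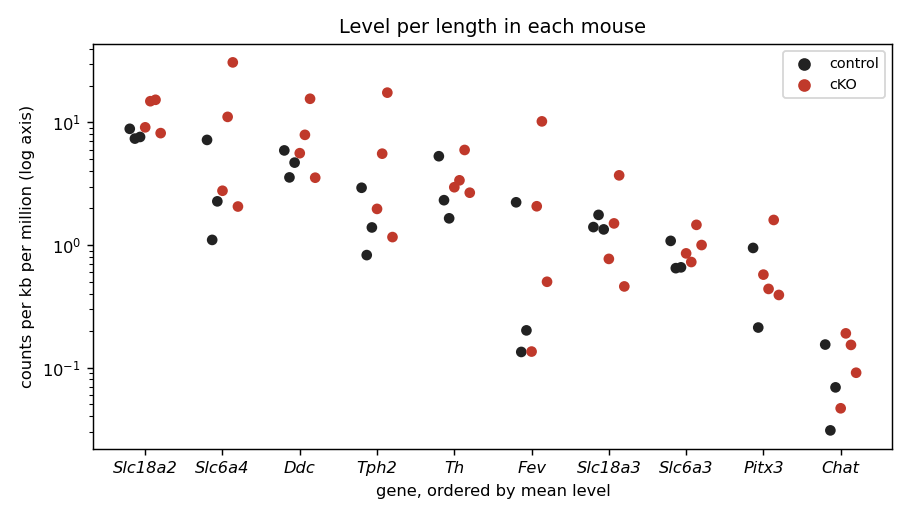
Level per length of each gene in each mouse, as length-scaled CPM on a log axis, with genes ordered by their mean. Points are mice (black, control; red, cKO), and a level of 0 (*Pitx3* in A2) is not drawn. The ranges of neighbouring genes overlap, and *Chat* is the lowest.

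Several of the genes varied more between mice of 1 genotype than most genes did. The SD of log2 CPM within genotypes was 2.24 for *Fev*, 1.69 for *Slc6a4* and 1.50 for *Tph2*, against a median of 0.33 over all genes tested, and 99.9%, 99.8% and 99.6% of those genes had a smaller SD. It was 1.35 for *Pitx3*, 1.04 for *Slc18a3*, 0.82 for *Ddc* and 0.73 for *Th*. Without B8 it was 1.72 for *Fev*, 1.30 for *Slc6a4*, 1.01 for *Tph2*, 1.29 for *Pitx3*, 0.58 for *Slc18a3*, 0.50 for *Ddc* and 0.63 for *Th*. *Slc6a3* (0.48) and *Slc18a2* (0.42) were nearer to the median, with 70.9% and 64.3% of genes below them. For *Slc6a4* the biological coefficient of variation was 0.801, against 0.236 for the trend of genes at its level. For *Slc6a3* the values were 0.352 and 0.387.

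**Figure D4:**
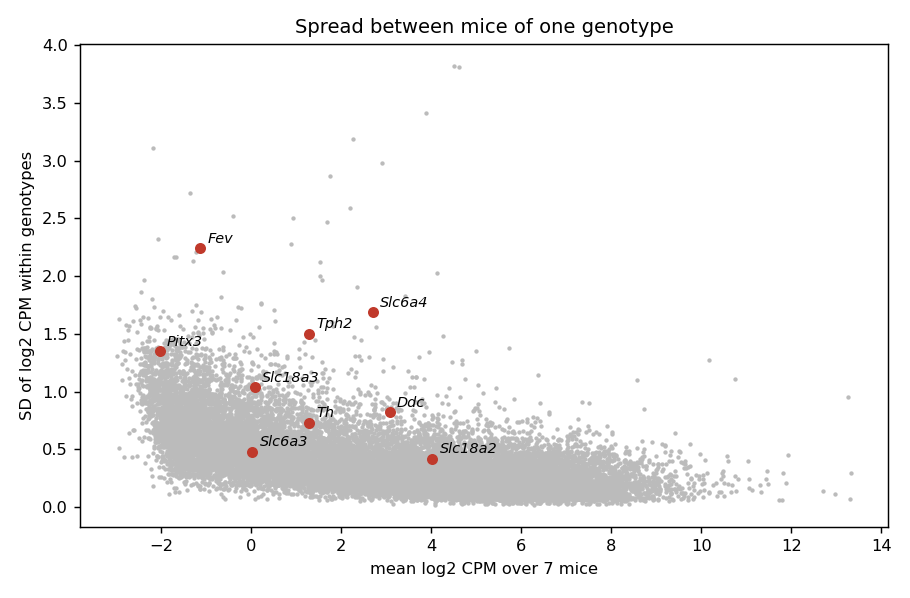
Spread of each gene between mice of 1 genotype (SD of log2 CPM, vertical axis) against its mean level (log2 CPM, horizontal axis). Grey points are the 21817 genes tested and red points are the 9 members among them. *Fev*, *Slc6a4* and *Tph2* lie above nearly all genes of like level, and *Slc6a3* and *Slc18a2* lie within the bulk.

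Mice of the same genotype and age also differed. Among the P4 cKO mice *Tph2* was 1.85 CPM in B1 and 17.2 CPM in B8, and among the P2 cKO mice it was 4.45 CPM in B7 and 0.917 CPM in B9. When the controls were compared with the P2 cKO mice alone, edgeR called 46.9% of all genes but 0 of 8 members tested, and the log2 fold change of *Tph2* was 0.67 (SE 0.62, edgeR adjusted p = 0.407). Against the P4 cKO mice, B8 among them, it was 2.55 (SE 0.85, edgeR unadjusted p = 0.0184), in P4 mice only it was 2.19 (edgeR unadjusted p = 0.0461) and with age as a covariate it was 2.34 (edgeR unadjusted p = 0.0244), and none of these passed after adjustment (edgeR adjusted p = 0.667, 0.989 and 0.271). DESeq2 called 5.50% of the 36248 genes it fitted and 0 of the 10 members, of which *Pitx3* and *Chat* had no adjusted p and could not be called, edgeR without B8 called 46.7% and 0 of 7, and limma-voom with sample weights called 48.5% and 0 of 9. In each of the 19 alternatives run, 0 members were called, and at most 3 had an unadjusted p under 0.05. It was 3 of 9 against the P4 cKO mice, beside 774 of 21002 genes, and 3 of 9 with age as a covariate, beside 3967 of 21817. Without B9 it was 3 of 8, beside 3404 of 21024 genes. B8 was in each of these fits.

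Markers of the ventral midbrain were also highest in B8. The summed level of *Foxa1*, *Foxa2*, *Lmx1a*, *Nkx6-1* and *Nkx2-2*, transcription factors of ventral progenitors and neurons, was 15.8, 12.0 and 10.9 CPM in the controls and 15.4, 15.8, 26.9 and 10.3 CPM in the cKO mice, and all 5 were highest in B8. *Foxa2* was counted at 1.58, 0.575 and 0.256 CPM in the controls and at 1.07, 1.74, 3.84 and 0.635 CPM in the cKO mice, with B8, B7 and A2 the 3 highest. The mice next to B8 were others for the rest of the list: B7 and B1 for *Foxa1*, B9 and A2 for *Lmx1a*, B7 and A6 for *Nkx6-1*, and B1 and A2 for *Nkx2-2*. Most of the sum was *Nkx2-2* (6.54 to 14.4 CPM), and the sum was nearly the same in A2, B1 and B7, between which *Tph2* differed. edgeR called none of the 5 with all mice (median log2 fold change 1.20, against 0.00 over all genes tested) or without B8 (median 0.54). With sample weights, limma-voom called *Foxa1* (log2 2.31, SE 0.72, adjusted p = 0.0186) and *Lmx1a* (1.73, SE 0.63, adjusted p = 0.0378) higher in cKO mice, beside 48.5% of all genes. The part of ventral tissue in the values of *Tph2*, *Slc6a4*, *Fev*, *Th* and *Ddc* was not tested. *En1*, a gene of the midbrain and rostral hindbrain, was counted at 3.48, 3.05 and 3.32 CPM in the controls and at 2.78, 5.39, 12.3 and 7.78 CPM in the cKO mice. B8 was the highest there too, and the 2 P2 mice followed it. *En2*, by contrast, was highest in B9 (27.4 CPM), with 22.7 CPM in B8, 22.4 CPM in B7 and 11.1 to 15.8 CPM in the others. Of the 6 dorsal midbrain markers, edgeR called 0 with all mice. It called 3 (*Pax7*, *Tfap2b* and *Meis2*) higher in cKO mice without B8, beside 46.7% of all genes. The same 3 were called higher against the P2 cKO mice, beside 46.9%, and by limma-voom with sample weights, beside 48.5%. The sum of the dorsal midbrain markers was lowest in B8 (993 CPM) and highest in B9 (1608 CPM). Most of that sum was *Tfap2b* (520.0 to 944 CPM), the only one of the 6 that was lowest in B8. *Pax7*, *Meis2* and *Otx2* were lowest in A2 and *Barhl1* and *Pou4f1* in B7. B8 was close to A2 in *Pax7* (58.1 against 57.7 CPM) and *Meis2* (144 against 143 CPM).

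**Figure D5:**
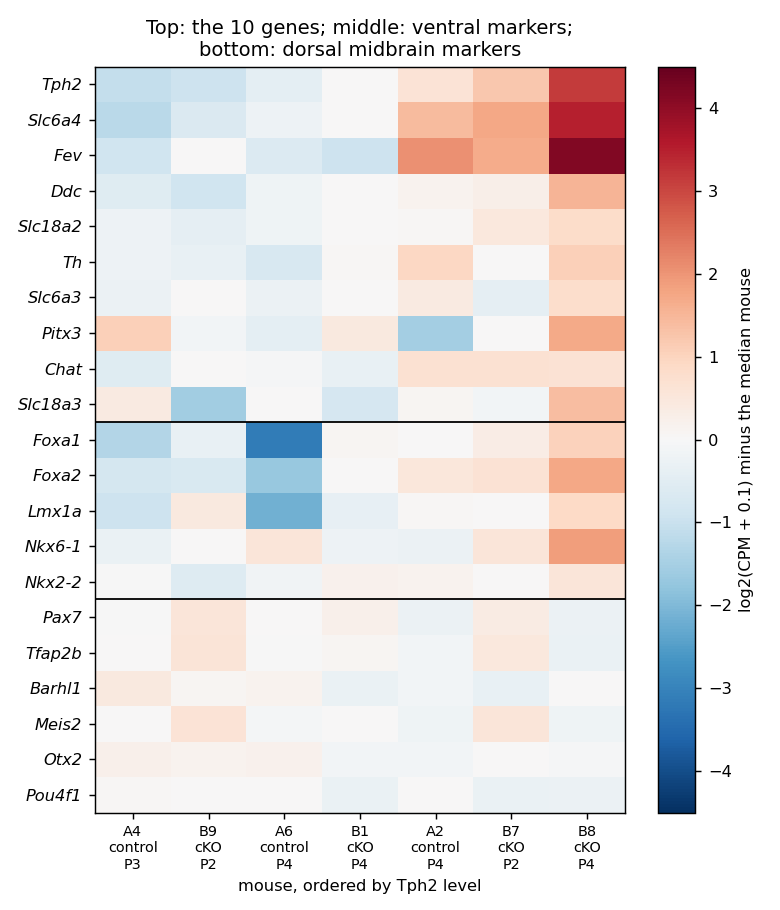
Level of the 10 genes (top), 5 ventral midbrain markers (middle) and 6 dorsal midbrain markers (bottom) in each mouse, as log2(CPM + 0.1) minus the median mouse, with mice ordered by *Tph2*. Red is above and blue below the median mouse. B8, at the right, is red in all rows of the upper blocks. Among the dorsal markers, *Pax7*, *Tfap2b* and *Meis2* are highest in B9 and B7.

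Markers of other regions were read in the same libraries. Of 6 *Hox* genes of the hindbrain behind its rostral part, *Hoxb2*, *Hoxa3* and *Hoxb5* had 0 counts in every library, and the sum of the 6 was at most 0.212 CPM. Noradrenergic markers, of the locus coeruleus, summed to 0.207 to 0.887 CPM, with at most 18 counts for *Dbh*, which makes noradrenaline from dopamine, and 30 for the transporter *Slc6a2*. Hypothalamic markers summed to 2.70 to 6.99 CPM, mostly *Pomc*, *Otp* and *Agrp*, beside 2.19 to 7.39 CPM for the sum of *Th*, *Slc6a3* and *Pitx3*. The rest of the hypothalamic list had at most 9 counts each. The 6 cerebellar markers summed to 45.1 to 62.2 CPM, of which *Cbln1* (16.4 to 27.3 CPM) and *Car8* (27.0 to 40.2 CPM) held the most, *Cbln3* was at 1.15 to 1.62 CPM, and *Gabra6* and *Atoh1*, of granule cells, had at most 2 counts. The 5 thalamic markers summed to 496 to 795 CPM, mostly *Tcf7l2*, *Rora* and *Ntng1*, while *Gbx2* of that list was at 0 to 0.404 CPM. The 5 cortical markers summed to 11.2 to 27.0 CPM, with A4 the highest. The part of these regions in the values of the 10 genes was not tested.

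Genes that act with the members were examined as fixed lists, and edgeR called 0 of them with all mice. Their counts at an unadjusted p under 0.05 stand beside 30.4% of all genes, and their calls without B8 beside 46.7% of all genes. Of 10 genes of dopaminergic development, among which *Ret*, *Drd2* and *En2* had the highest levels, 2 had an unadjusted p under 0.05 and both were higher in cKO mice (*En1* and *En2*, log2 0.67 for the latter, SE 0.28). Of 8 genes of serotonergic development, led by *Gata3*, *Htr1a* and *Gata2*, 1 did (*Slc17a8*, a vesicular glutamate transporter, log2 0.85, SE 0.38). *Gata3*, whose product acts in serotonergic and also in many GABAergic midbrain neurons, was at 63.2 to 96.4 CPM. Of 5 cholinergic and motor genes tested, led by *Ache*, *Slc10a4* and *Prph*, 1 did (the choline transporter *Slc5a7*, log2 0.85, SE 0.35). Of 7 enzymes of cofactor synthesis and monoamine breakdown, 3 had an unadjusted p under 0.05 and all 3 were lower in cKO mice. Among them were *Qdpr*, which regenerates tetrahydrobiopterin (log2 -0.65, SE 0.24, edgeR adjusted p = 0.138), and *Spr*, which makes it (-0.91, SE 0.33, edgeR adjusted p = 0.138). Both were called without B8 (edgeR adjusted p = 4.53e-04 and 4.01e-04), and the 2 P2 mice had the lowest levels of each.

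Receptors of the 3 transmitters were examined in the same way, against the same 30.4% and 46.7% of all genes. Of 13 acetylcholine receptor genes tested, led by *Chrnb2*, *Chrna4* and *Chrm3*, 3 had an unadjusted p under 0.05 (*Chrna7*, *Chrm2* and *Chrm5*), all higher in cKO mice, and 3 were called without B8. *Chrna7*, a nicotinic subunit, was counted at 2.61, 1.45 and 2.26 CPM in the controls and at 12.3, 10.3, 3.40 and 9.06 CPM in the cKO mice. The groups did not overlap and B8 was the nearest cKO mouse to the controls, with a log2 fold change of 2.07 (SE 0.43, edgeR adjusted p = 0.138) that was called without B8 (2.34, SE 0.24, edgeR adjusted p = 7.08e-05) and by DESeq2 (adjusted p = 3.49e-04). Of 13 serotonin receptor genes tested, led by *Htr2c*, *Htr1b* and *Htr7*, 2 were higher (*Htr2a* and *Htr2c*) and 1 was lower (*Htr5b*) at an unadjusted p under 0.05. Without B8, 4 of 12 were called higher and 1 lower, and DESeq2 called *Htr2a* (adjusted p = 0.00189) and *Htr5b* (adjusted p = 0.0370). *Htr2a* was counted at 1.49, 0.550 and 1.13 CPM in the controls and at 6.23, 8.09, 1.75 and 4.49 CPM in the cKO mice. Its groups did not overlap either, and its log2 fold change was 2.31 (SE 0.54, edgeR adjusted p = 0.138), or 2.60 (SE 0.35, edgeR adjusted p = 1.53e-04) without B8. Of 4 dopamine receptor genes tested, *Drd2* had the highest level (11.8 to 24.5 CPM), and none had an unadjusted p under 0.05. *Drd2* had a log2 fold change of -0.42 (SE 0.25, edgeR adjusted p = 0.260) with all mice and was called lower without B8 (-0.69, SE 0.15, edgeR adjusted p = 0.00305). *Chrna7*, *Chrm2*, *Chrm5*, *Htr2a*, *Htr5b*, *Spr*, *Slc17a8*, *Slc5a7*, *En1*, *Foxa1*, *Lmx1a* and *Gbx2* were named after their values were seen.

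Among 13973 other protein-coding genes whose mean reached 1 CPM, those most like *Tph2* over the 7 libraries were *Slc6a4* (r = 0.986), *Ddc* (0.973) and *Arhgap36* (0.972). *Arhgap36* was counted at 10.4, 7.42 and 7.41 CPM in the controls and at 9.05, 10.7, 14.8 and 8.16 CPM in the cKO mice, with B8, B7 and A2 the highest. Those most like *Slc6a3* were *Dlk1* (0.947), *Il33* (0.919) and *Ikbke* (0.901), and *Dlk1* had 18.6 CPM in B8 against 8.58 to 12.8 CPM in the others. Among those most like *Chat* were *Stx11* (0.903) and *Taz* (0.901), which rests on few *Chat* counts. These values are descriptions over 7 libraries that share B8.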

How the data were processed

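One library was made from each of 7 dissected dorsal midbrains. The authors deposited raw counts of read pairs per gene, made with HTSeq on GENCODE vM15 after trimming and alignment with TopHat2 and Bowtie2 (GRCm38.p5), and these counts were not normalized. Gene names, exons and positions came from GENCODE vM21 (52489 of 52636 identifiers matched), and promoters from RefSeq. Entries that name no gene (31% to 38.2% of the counted read pairs) were left out.

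The 10 genes and the other lists were chosen with earlier results of these data known. The text names all 10, any called gene of the other lists, the 3 genes of each list with the highest mean, defining markers at 0 to 3 counts, and the 3 genes most like *Tph2*, *Slc6a3* and *Chat*; others are said to be chosen after their values were seen. Some genes that this rule names are not reported here.

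The counts were tested in R 4.3.3 with edgeR 4.0.16: filterByExpr (minimum count 10, minimum total 15), TMM, glmQLFit and glmQLFTest with genotype as the only term, adjusted over all 21817 genes. The adjusted p is two-sided. Log2 CPM used a prior count of 2. In exact permutation tests over the 35 ways to choose 3 of 7 mice, the lowest p is 0.0286 one-sided. The two-sided p, computed here from the smaller tail, cannot go below 0.0571, so fits across genes are printed. The p-values measure the spread between these mice. Alternatives used DESeq2 1.42.0 (an adjusted p it gives as NA was left out), limma 3.58.1 and mgcv 1.9.3 (for GC content and length), other filters, scaling and samples, and each mouse left out in turn. The fit was tested on simulated data. Intervals cover counting error only. The 95% intervals of fold changes use the degrees of freedom of the quasi-likelihood test.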

Additional observations from a re-analysis of the deposited data

Results flagged for a closer look

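*Fev* among the cKO mice was set apart by 1 library: B8 had 5.67 CPM, and its gap to the next mouse was 0.846 of the range of the 4 cKO mice, above the 95% critical value of Dixon's test. Chance gives about 1 such group in 20, and 1 of the 10 genes examined met the rule. *Th* (0.825) and *Pitx3* (0.821) in B8 came just below the critical value.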

How the results depend on the processing

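edgeR called 1 gene with all mice, and the count over all genes was 1994 with DESeq2, 10583 with limma-voom and sample quality weights, 10425 for the controls against the P2 cKO mice and 0 for the P4 mice only (edgeR; 245 genes at an unadjusted p under 0.05). It ranged from 1 to 9867 when each mouse was left out in turn, the highest without B8, and was 7848 without A4 and B8, an alternative chosen after seeing the data. The count of members called was 0 under all of these, and the cause of the differing counts was not tested. Directions that turned, in log2 units: without A4 and B8, *Th* was -0.44, *Slc6a3* -0.24, *Ddc* -0.13, *Slc6a4* -0.08 and *Fev* -0.63. Against the P2 cKO mice alone, *Th* was -0.35, *Slc6a3* -0.19 and *Ddc* -0.04, and *Slc6a3* was -0.10 with limma-voom. *Slc18a3*, near 0 with all mice, was 0.00 with at least 10 counts in every sample, 0.16 with age as a covariate, 0.59 against the P4 cKO mice, 0.72 in P4 mice only, 0.01 with counts thinned to the smallest library and 0.29 after the correction for GC content and length. With each mouse left out in turn, *Th* ranged from -0.27 (without B8) to 0.77 (without A2), *Slc6a3* from -0.11 to 0.48 and *Slc18a3* from -0.97 to 0.34, while *Tph2* ranged from 0.54 (without B8) to 2.51 (without A2), *Slc6a4* from 0.37 (without B8) to 2.74 (without A2) and *Fev* from 1.36 (without A4) to 4.23 (without A2), none of them called. *Fev* could not be fitted without B7 or without B8. *Pitx3*, 0.69 with all mice, was 0.19 without A2 and 0.40 without A6, could not be fitted when any other mouse was left out, and reached 1.37 against the P4 cKO mice. *Chat* and *Pitx3* had 49 and 91 counts over all libraries, which limits what can be seen of them at this depth. No paired analysis was possible because no number in the labels links a control to a cKO mouse.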

Other observations

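Pineal and mast cells also make serotonin. The pineal markers *Aanat*, *Asmt*, *Crx*, *Tph1*, *Sag* and *Gngt1* summed to 0.392 to 1.65 CPM, and *Tph1*, the hydroxylase of peripheral tissue and the pineal gland, had at most 20 counts. The mast cell proteases *Cpa3*, *Mcpt4*, *Tpsb2* and *Cma1* had at most 27 counts each, while *Kit*, which midbrain cells also express, was at 65.8 to 131 CPM. *Pomc*, a hypothalamic and pituitary gene, was counted at 1.41, 5.50 and 2.74 CPM in A2, A4 and A6 and at 1.35, 0.574, 1.45 and 0.411 CPM in B1, B7, B8 and B9, with a log2 fold change of -1.81 (SE 0.55, edgeR adjusted p = 0.138), and A4 was the highest. It was -1.17 (SE 0.56, edgeR adjusted p = 0.395) without A4, and it was called without B8 (-2.16, SE 0.52, edgeR adjusted p = 0.00485).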
